A study of Mus musculus with 3 samples.

Results

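Transcripts of 10 genes of heart muscle cells (cardiomyocytes) were followed through myeloid cells sorted from mouse hearts. The genes were Myl2, Myl3, Myh6, Actc1, Tnni3, Tnnt2, Tnnc1, Mb, Ckm and Cox7a1. They were picked out by symbol, with earlier results of these data known, and they are 10 of the 27998 genes common to all 3 libraries. Each symbol was found once in each library. The day 11 library held heart macrophages taken 11 days after myocardial infarction, from C57BL/6 mice of 8 to 12 weeks with the genotype Cx3cr1CreER-YFP/+:R26Td/+. The macrophage and DC library held macrophages and dendritic cells (DCs) from uninjured wild-type C57BL/6 mice of 8 to 12 weeks. The steady-state macrophage library held macrophages of uninjured C57BL/6 mice of 8 to 12 weeks that carried the same Cx3cr1CreER-YFP/+:R26Td/+ alleles as the day 11 mice. In those mice the Cx3cr1 locus, which is active in macrophages and other mononuclear phagocytes, drives CreER and YFP, and R26Td is a Cre-dependent tdTomato at Rosa26. All hearts were digested with collagenase I, DNase I and hyaluronidase in the presence of flavopiridol, a blocker of transcription, and enriched for CD45+ cells on magnetic beads. Macrophages were sorted as live CD64+CD11b+ and DCs as live CD64-CD11c+ with MHCII int-high, all CD45+. Each group was 1 library, and how many animals each library pooled is not stated.

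Cardiomyocytes shorten by sliding thick myosin filaments along thin actin filaments. Calcium starts each beat by binding troponin on the thin filament, and myoglobin, creatine kinase and a dense set of mitochondria supply the oxygen and energy. Macrophages and DCs are not known to build this apparatus, and heart macrophages are known to clear dead cardiomyocytes and material that living ones shed. In droplet libraries, a UMI (a unique molecular identifier, which marks 1 captured RNA molecule) of a cardiomyocyte gene can also come from free RNA in the droplet or from a second cell in it. The counts describe how these UMIs were spread over cells, and which of these sources they came from was not tested.

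The cells kept were 4673 of 4697 barcodes in the day 11 library, 1767 of 1780 in the macrophage and DC library and 1767 of 1806 in the steady-state macrophage library. Median UMIs per kept cell were 8246, 7193 and 10834 in the same order, so the libraries differed in depth. Ptprc, which encodes CD45, had a UMI in 81.5%, 77.3% and 81.7% of the cells. The libraries shared 7 to 11 cell barcodes in pairs, and leaving these out moved no summed level by more than 1 CPM. Levels are in CPM, UMIs per 1000000 UMIs of the cells without the reporter genes. With 1 library per group no test across animals was possible, and the intervals below are exact 95% intervals for counting error only, which treat each UMI as independent.

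Before the values, 3 promoters are shown, because a run of letters shared by several of the 10 genes is part of what they have in common beyond their name. RefSeq promoter windows (GRCm38.p6, from 250 bases before to 50 bases after a start that RefSeq gives for the gene) were found for 10 of 10 members, 14 windows in all. A search for every run of 10 letters, read on either strand, that occurs in at least 3 of the members gave 3 runs. CCAAAATAGC (GCTATTTTGG on the other strand) lies in windows of Mb, Myl3 and Tnnt2 and in 28 of all 27025 genes, or 0.104%. AAGGCCATGG lies in Ckm, Myh6 and Myl2 and in 0.115% of all genes, and AGCCAGCCAG lies in Ckm, Myl2 and Tnnc1 and in 0.496%. Capitals mark the first run, which starts 66 bases before the RefSeq start of this window in Mb, 115 before it in Myl3 and 88 before it in Tnnt2. For Mb and Myl3 that start lies inside the GENCODE positions given below and not at their end. A match describes the letters of the window and names no factor or use.
Mb (chr15:77022678-77022977, minus strand): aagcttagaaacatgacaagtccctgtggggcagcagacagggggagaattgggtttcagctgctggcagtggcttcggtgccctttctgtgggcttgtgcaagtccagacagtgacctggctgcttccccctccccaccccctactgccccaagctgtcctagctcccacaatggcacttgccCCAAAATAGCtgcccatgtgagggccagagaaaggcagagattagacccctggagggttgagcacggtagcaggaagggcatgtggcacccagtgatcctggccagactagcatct
Myl3 (chr9:110763428-110763727, plus strand): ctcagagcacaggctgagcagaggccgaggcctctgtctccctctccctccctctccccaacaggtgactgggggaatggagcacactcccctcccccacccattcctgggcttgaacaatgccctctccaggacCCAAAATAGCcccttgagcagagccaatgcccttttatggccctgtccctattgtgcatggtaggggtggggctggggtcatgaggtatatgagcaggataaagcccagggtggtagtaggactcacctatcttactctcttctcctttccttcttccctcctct
Tnnt2 (chr1:135836084-135836383, plus strand): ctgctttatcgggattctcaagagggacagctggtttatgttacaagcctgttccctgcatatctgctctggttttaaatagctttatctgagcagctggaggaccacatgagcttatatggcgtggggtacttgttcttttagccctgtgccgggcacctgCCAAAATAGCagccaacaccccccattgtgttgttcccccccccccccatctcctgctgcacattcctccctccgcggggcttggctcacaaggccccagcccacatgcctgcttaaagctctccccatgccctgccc

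All 10 transcripts were present in each library, and their sum was lowest at day 11. The summed level was 69.5 CPM (95% interval 67.1 to 72.0) in the day 11 library, 167 CPM (160.0 to 173) in the macrophage and DC library and 171 CPM (166 to 176) in the steady-state macrophage library. These levels rest on 3133, 2389 and 4004 UMIs. The day 11 level was 0.407 times (0.388 to 0.427) that of the steady-state macrophages and 0.417 times (0.396 to 0.440) that of the macrophage and DC library. At least 1 UMI of the 10 genes was found in 32.9% of day 11 cells, 29.1% of macrophage and DC cells and 69.7% of steady-state macrophages. These shares also carry the difference in depth. After thinning every cell to 3000 UMIs, by formula and without the 84, 172 and 0 shallower cells, they were 15.4%, 17.0% and 33.9%. At equal depth the intervals of the day 11 share (14.4% to 16.5%) and the macrophage and DC share (15.2% to 18.9%) overlapped, and the steady-state share (31.7% to 36.2%) lay above both.

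**Figure D1:**
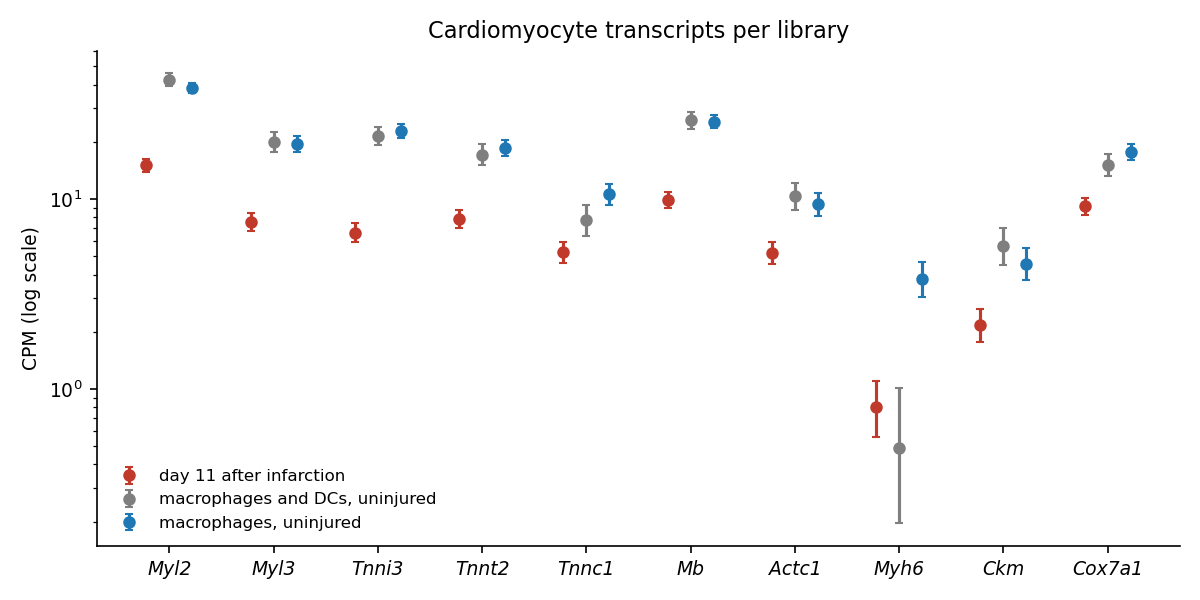
Level of each of the 10 cardiomyocyte transcripts (CPM, log scale) in the day 11 library (red), the macrophage and DC library (grey) and the steady-state macrophage library (blue). Points are the value of 1 library and bars the exact 95% interval for counting error; all 10 red points lie below their blue points.

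The thick filament is represented by a motor and its light chains. Myl2, the regulatory light chain of the ventricle (chr5:122100951-122113472, plus strand; all positions are from GENCODE vM21 on mm10, and all 10 genes are protein-coding), had most UMIs of the 10. Its level was 15.0 CPM at day 11, 42.5 CPM in the macrophage and DC library and 38.5 CPM in steady-state macrophages, and the day 11 level was 0.391 times (0.353 to 0.432) that of steady-state macrophages. Myl3, the essential light chain of the ventricle (chr9:110741861-110769798, plus strand), had 7.55, 20.0 and 19.5 CPM in the same order. Both light chains were thus lowest in the day 11 library. Their closeness in the other two rested on few cells: without the 1% of cells with most member UMIs, the macrophage and DC level was 0.675 times (0.592 to 0.768) the steady-state level for Myl2 and 0.495 times (0.400 to 0.608) for Myl3. Myh6 encodes the alpha myosin heavy chain, the main motor of the adult mouse heart (chr14:54941921-54966927, minus strand). It had 36, 7 and 89 UMIs, or 0.799, 0.488 and 3.80 CPM, and so was low in 2 libraries and not in the day 11 library alone. Of the 451 runs of 50 bases in the last 500 of its transcript, 193 also occur on the same strand in Myh7 and 130 lie antisense in other transcripts, so its few counts are uncertain. The strand setting of the counting is not known here.

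The thin filament carries actin and the troponin complex. Tnni3, the inhibitory subunit of cardiac troponin (chr7:4518305-4524229, minus strand), had 6.66 CPM at day 11, 21.5 CPM in the macrophage and DC library and 22.8 CPM in steady-state macrophages. Its day 11 level was 0.292 times (0.253 to 0.337) that of steady-state macrophages, below the ratio of the sum. Tnnt2, the subunit that ties troponin to tropomyosin (chr1:135836354-135852260, plus strand), had 7.86, 17.2 and 18.6 CPM. Tnnc1, the calcium-binding subunit of heart and slow skeletal muscle (chr14:31208312-31211729, plus strand), had 5.24, 7.74 and 10.6 CPM. Actc1, cardiac alpha actin (chr2:114047282-114053548, minus strand), had 5.19, 10.3 and 9.39 CPM, and its ratio of day 11 to steady state, 0.553 (0.458 to 0.668), was the one nearest to 1 of the 10. The 3 troponin subunits and actin were each lower in the day 11 library than in either of the others, by unequal folds. Without the top 1% of cells Tnnc1 turned, at 4.14 CPM at day 11 against 3.76 CPM in the macrophage and DC library, a ratio of 1.10 (0.806 to 1.52), and the ratio of Tnni3 was 0.562 (0.455 to 0.696) instead of 0.309. Against steady-state macrophages all 10 members stayed lower at day 11 in that setting, at ratios of 0.207 to 0.527.

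The last group serves oxygen and energy. Mb, myoglobin, which binds oxygen in muscle (chr15:77015487-77050670, minus strand), had 9.90 CPM at day 11, 26.1 CPM in the macrophage and DC library and 25.6 CPM in steady-state macrophages. Of 451 runs in its last 500 bases, 359 lie antisense in Gm49540. Ckm, the muscle creatine kinase (chr7:19404776-19422841, plus strand), had 2.18, 5.65 and 4.57 CPM. Cox7a1, the muscle form of a subunit of cytochrome c oxidase (chr7:30184144-30186078, plus strand), had 9.14, 15.1 and 17.6 CPM, and its ratio of day 11 to steady state was 0.519 (0.452 to 0.596). The low level at day 11 was thus not limited to the genes of the sarcomere.

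Set against steady-state macrophages, 8 of 10 members were at least 2-fold lower at day 11, all but Actc1 and Cox7a1. With no minimum 14% of 17567 genes were, and 6.07% of the 11653 genes of at least 1 CPM on either side. Among the 7 members that reached 10 CPM on either side, 6 were, while 2.95% of the 7480 genes at that level were at least 2-fold lower. Only Myl2 of these 7 reached 10 CPM at day 11 as well, so the minimum itself favoured this count. The median ratio was 0.407 over the 10 members and 0.946 over the 7480 genes. Against the macrophage and DC library, 5 of the 7 members that reached 10 CPM were at least 2-fold lower, and 4.23% of 7278 genes were. Here too only Myl2 reached 10 CPM at day 11. The day 11 library is common to both comparisons. Leaving out cells of at least 10 member UMIs was a setting chosen after seeing the data, and it cuts on the compared sum itself. The ratio of the sum was then 1.01 (0.934 to 1.09) to the macrophage and DC library and 0.440 (0.418 to 0.464) to steady-state macrophages. The macrophage and DC library also holds DCs, so cells with complement C1q RNA were compared by themselves. The C1q gate took cells with at least 20 UMIs of C1qa, C1qb and C1qc together per 10000, and held 4472 day 11 cells, 839 cells of the macrophage and DC library and 1756 steady-state macrophages. Inside it the summed level was 71.1 CPM at day 11, 116 CPM in the macrophage and DC library and 170.4 CPM in steady-state macrophages. The day 11 level was then 0.417 times (0.398 to 0.438) that of steady-state macrophages, with 6 of 7 members at least 2-fold lower where 2.92% of genes were. Of these 7, only Myl2 and Mb reached 10 CPM at day 11, so the minimum favoured this count too. The day 11 level was 0.613 times (0.560 to 0.672) that of the macrophage and DC library, with 0 of 6 members at least 2-fold lower where 2.17% of genes were. The uninjured libraries, which differ in genotype and gate, differed from each other too: inside the C1q gate the macrophage and DC level was 0.681 times (0.623 to 0.744) the steady-state level.

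The UMIs were not spread over cells as a Poisson law of the same mean would place them, and they were most concentrated in the macrophage and DC library. The 1% of cells with most member UMIs held 19.2% of them in the day 11 library, 48.0% in the macrophage and DC library and 10.6% in steady-state macrophages. A Poisson law gives 5.35%, 4.01% and 3.22% by formula. Cells with no member UMI made up 67.1%, 70.9% and 30.3%, where a Poisson law that allows for each cell's depth gives 54.2%, 32.3% and 18.3%. A share of 50% of the member UMIs lay in 296 cells at day 11, in 21 cells of the macrophage and DC library and in 228 steady-state macrophages. The variance over the mean at 3000 UMIs per cell, which is 1 for an even spread, was 2.46, 9.20 and 2.27. Without the 1% of cells with the highest member share it was 1.30, 3.004 and 1.41, so that most of the excess lay in those few cells, while some remained in the rest. Lists of other cell types lay in few cells in some libraries and not in others. The top 1% held 60.2%, 64.4% and 42.8% of the UMIs of 7 fibroblast genes, on 3303, 59 and 760 UMIs, where a Poisson law gives 5.24%, 32.2% and 7.23%. For 7 endothelial genes it held 52.6%, 28.9% and 58.1%, where a Poisson law gives 13.9%, 25.8% and 7.51%, so that in the macrophage and DC library their 76 UMIs lay close to an even spread. A single steady-state barcode held 8203 of the 8782 UMIs of 4 haemoglobin genes.

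**Figure D2:**
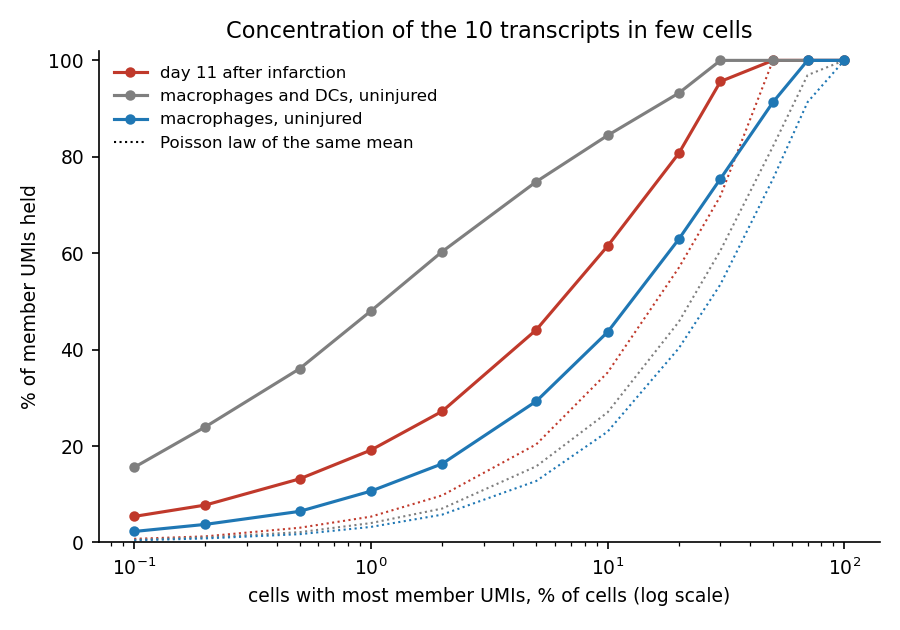
Share of all member UMIs held by the cells with most of them, against the share of cells (log scale), for the day 11 library (red), the macrophage and DC library (grey) and the steady-state macrophage library (blue). Dotted lines give a Poisson law of the same mean; the grey line reaches 48.0% at 1% of cells, against 19.2% for red and 10.6% for blue.

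Members were found together in the same cells. In 1 draw of 3000 UMIs per cell, the share of cells with a second member was compared between cells with and without a first, over 36, 28 and 36 pairs with at least 20 positive cells each. The median ratio of these shares was 4.33 in the day 11 library, 13.2 in the macrophage and DC library and 3.07 in steady-state macrophages. The 2 cells with most member UMIs, both with Xcr1 in the macrophage and DC library, held 187 and 185. In the first, Tnni3 had 45 UMIs, Myl2 36, Myl3 29, Mb 27 and Tnnt2 25, and 9 of 10 members were found. These UMIs were 0.723% of the 25852 in that cell. The highest day 11 cell had 61 member UMIs, with 20 of Mb and 14 of Myl2, and the highest steady-state macrophage had 49. The makeup of the sum was alike between libraries. Myl2 gave 21.6%, 25.5% and 22.5% of the member UMIs and Mb 14.2%, 15.7% and 15.0%, and across the 10 genes Pearson's r between 2 libraries' percentages lay between 0.946 and 0.988, as a description of genes that share these libraries.

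Most of the concentrated UMIs of the macrophage and DC library were in cells with Xcr1, a chemokine receptor of type 1 conventional DCs (cDC1). Cells were placed in classes by RNA alone: inside the C1q gate with or without a UMI of Timd4, a receptor for phosphatidylserine on resident macrophages, and outside it with Xcr1, with Cd209a (a lectin of cDC2 and monocyte-derived cells) or with neither. The 325 cells with Xcr1 were 18.4% of the cells and held 64.2% of the member UMIs, at 375 CPM (356 to 394). The 426 cells with Cd209a were 24.1% of the cells and held 3.31% of the member UMIs, at 20.1 CPM (15.9 to 25.0). Cells inside the C1q gate had 109 CPM (88.1 to 134) with Timd4 and 117 CPM (107 to 128) without it, and the 177 cells with neither marker had 146 CPM (127 to 168). The Xcr1 and Cd209a classes came from the same library, and their levels differed by more than the counting error.

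Within the Xcr1 class the UMIs lay in few cells. No member UMI was found in 200 of its 325 cells, and 34 cells with at least 10 held 86.0% of the class's member UMIs. The variance over the mean was 71.4, against 1.19 in the Cd209a class, where no cell had more than 3. Without the cells of at least 10 member UMIs, the Xcr1 class had 58.0 CPM, the Cd209a class 20.1 CPM, the C1q gate cells with Timd4 109 CPM, those without it 98.2 CPM and the cells with neither marker 38.0 CPM. In that last class 6 of 177 cells had held 74.9% of the member UMIs, so the concentration was not limited to cells with an Xcr1 UMI. Whether those 6 were cDC1 whose Xcr1 RNA was not captured was not tested. Without the cells of at least 10 member UMIs the Xcr1 class lay below the C1q gate and above the Cd209a class. This cut takes out the cells highest in the compared sum, so the class that held most of them had to fall. A count of 10 UMIs is also a lower share of a deeper cell. Median depth was 12396 UMIs in the Xcr1 class, and 5873 and 4927 in the gate with and without Timd4. The order after the cut thus supports no difference between classes. Over all cells of that library, those with Xcr1 had 4.36 times (4.001 to 4.74) the summed level of those without it. All 9 members with at least 10 CPM on either side were at least 2-fold higher with Xcr1, where 5.17% of 6581 genes were. Actc1, Tnni3, Myl3, Tnnc1 and Ckm reached 10 CPM only in the cells with Xcr1, so the minimum itself favoured this count. With no minimum all 10 members were, Myh6 on 4 and 3 UMIs, where 10.7% of 14815 genes were. Both counts include the 34 cells with at least 10 member UMIs. The ratios were highest for Actc1, at 7.06 (4.83 to 10.5), and Myl3, at 6.09 (4.68 to 7.98), and lowest for Cox7a1, at 2.25 (1.71 to 2.96). Without the cells of at least 10 member UMIs the ratio of the sum was 0.989 (0.846 to 1.15). Xcr1 had a UMI in 9 day 11 cells and 4 steady-state macrophages, too few to repeat the comparison, with ratios of 1.64 (0.873 to 2.81) and 0.784 (0.338 to 1.55).

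**Figure D3:**
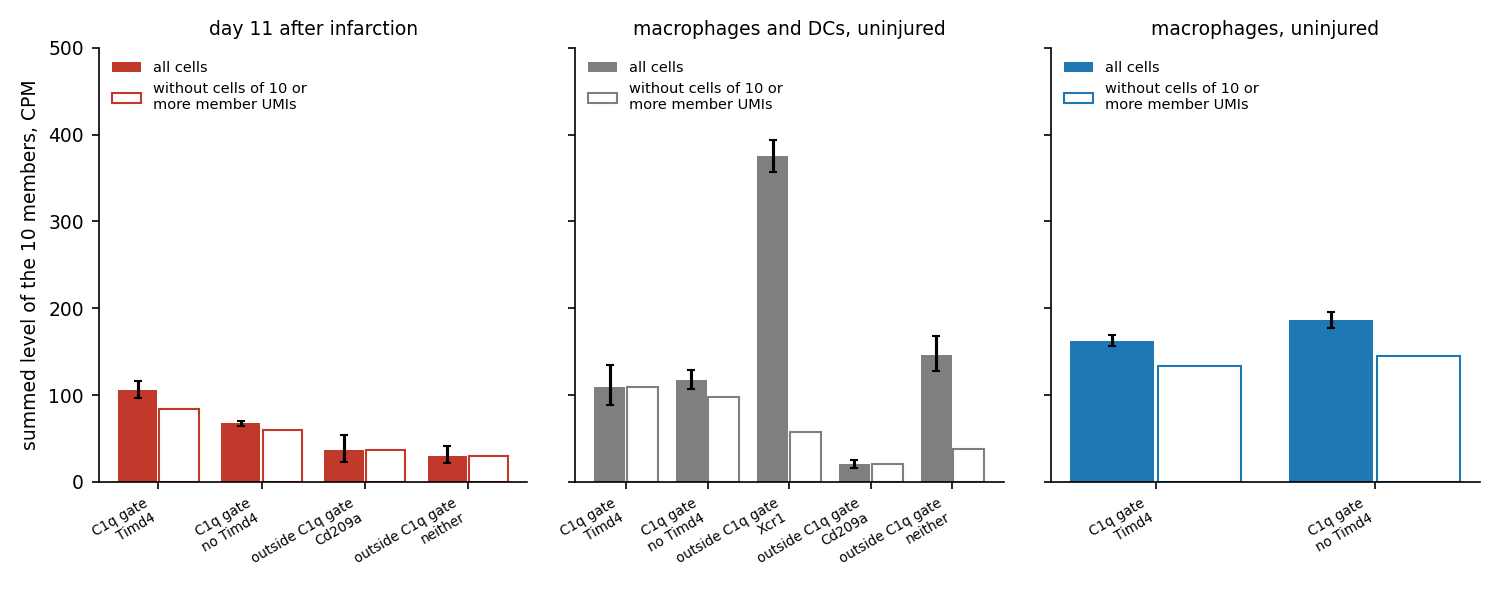
Summed level of the 10 transcripts (CPM) by class of cell in each library, for classes of at least 50 cells. Filled bars hold all cells with the exact 95% counting interval, and open bars leave out cells of at least 10 member UMIs; the Xcr1 class of the macrophage and DC library has 375 CPM in full and 58.0 CPM without them.

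Cells with a Timd4 UMI were set against cells without one in each library. At day 11 the summed level was 106 CPM with Timd4 and 65.6 CPM without it, a ratio of 1.61 (1.46 to 1.78). In the macrophage and DC library it was 376 CPM against 129 CPM, a ratio of 2.91 (2.67 to 3.17). In steady-state macrophages it was 162 CPM against 187 CPM, a ratio of 0.867 (0.813 to 0.926). Inside the C1q gate the ratios were 1.58 (1.43 to 1.74), 0.932 (0.736 to 1.17) and 0.873 (0.818 to 0.932). The ratio above 1 in the macrophage and DC library was thus not found among its C1q gate cells, and 84 of the 325 Xcr1 cells of that library had a Timd4 UMI. In the Xcr1 class the level was 584 CPM with Timd4 and 303 CPM without it, and 61.2 and 56.9 CPM without the cells of at least 10 member UMIs. The thinned share of cells with a member UMI was 22.4% with Timd4 and 14.8% without it at day 11, and 33.7% and 34.1% in steady-state macrophages, where cells with Timd4 were deeper (median 14051 against 8567 UMIs).

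Inside the C1q gate the summed level was 71.1 CPM at day 11, against 32.2 CPM outside it, a ratio of 2.21 (1.71 to 2.91) that rests on 201 cells outside. In the macrophage and DC library it was 116 CPM inside and 193 CPM outside, a ratio of 0.602 (0.547 to 0.662). That ratio turned to 2.61 without the cells of at least 10 member UMIs, a cut on the compared sum itself that took out 40 cells outside the gate. Only 11 steady-state macrophages lay outside the gate, with 26 member UMIs, of which 14 were in 1 cell. All cells with a Cd209a UMI, also those inside the C1q gate or with Xcr1, were then set against all cells without one. In the macrophage and DC library these were 693 cells, with up to 187 member UMIs in 1 cell, and not only the 426 of the Cd209a class. Their level was 57.0 CPM against 70.8 CPM at day 11, 123 against 202 CPM in the macrophage and DC library and 155 against 173 CPM in steady-state macrophages. The ratios were 0.805 (0.701 to 0.920), 0.607 (0.557 to 0.662) and 0.894 (0.804 to 0.992), below 1 in all 3 libraries.

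Cells rich in the 10 transcripts were defined by at least 10 member UMIs from at least 5 members. They numbered 23 of 4673 cells at day 11 (0.492%, 0.312 to 0.738), 42 of 1767 in the macrophage and DC library (2.38%, 1.72 to 3.20) and 61 of 1767 steady-state macrophages (3.45%, 2.65 to 4.41), in exact binomial intervals. They held 13.2%, 63.2% and 23.4% of the member UMIs. The threshold cuts a range and marks no cell type: 20, 15 and 72 cells had 8 to 12 member UMIs, and deeper libraries reach it more easily. In the macrophage and DC library 34 of the 42 were in the Xcr1 class, 6 in the class with neither marker, 2 in the C1q gate and 0 of 426 in the Cd209a class, where a limit of 3 cells allows a share of up to 0.704% and the exact binomial limit is 0.862%. At day 11 all 23 lay in the C1q gate, as did 60 of 61 in steady-state macrophages. The cells were chosen by their member UMIs, so the following values describe them and support no difference in the members.

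In the Xcr1 class, the 34 member-rich cells carried more of the other heart muscle transcripts than the other cells did. The list of 30 other heart muscle genes summed to 2454 CPM (2302 to 2612) in them and to 265 CPM (249 to 282) in the 291 other Xcr1 cells. Its genes are given singly and not counted, because the share of all genes higher in these 34 cells was not computed. Fabp3, a fatty acid carrier of muscle, had 246 against 2.44 CPM. Pln, phospholamban, which restrains the calcium pump of the sarcoplasmic reticulum, had 168 against 3.25 CPM. Tpm1, the tropomyosin of the thin filament, had 586 against 24.6 CPM, and Tcap, which caps titin, had 60.2 against 0.542 CPM. Atp2a2, the calcium pump itself, had 37.6 against 24.1 CPM, a ratio of 1.56 (0.838 to 2.71). Slc25a4, which carries ADP and ATP across the inner mitochondrial membrane, had 469 against 176 CPM, a ratio of 2.67 (2.25 to 3.14). The genes of the list thus did not differ by one common fold.

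Further measures of the member-rich Xcr1 cells lay near those of the other Xcr1 cells or differed by smaller folds. Xcr1 itself placed the cells in the class, and had 298 against 225 CPM, a ratio of 1.33 (1.09 to 1.61). The other 4 cDC1 markers, Clec9a, Cd24a, Irf8 and Wdfy4, had ratios of 1.18 (0.895 to 1.53), 1.08 (0.971 to 1.20), 1.04 (0.944 to 1.15) and 1.21 (0.964 to 1.51). Median UMIs per cell were 12147.5 and 12396, and the median share of mitochondrial UMIs was 1.81% and 1.72%. Ptprc had a UMI in 76.5% and 88.7% of them. Markers of other cells of the heart were near 0 in both. The 7 fibroblast genes had 0 UMIs in the 34 cells and 7 UMIs in the others, and the 7 endothelial genes 2 and 16 UMIs, or 5.01 and 4.33 CPM. The 7 macrophage markers had 431 CPM (369 to 501) in the member-rich and 462 CPM (441 to 485) in the other cells. The 4 markers of resident macrophages (Timd4, Lyve1, Folr2 and Vsig4) had 80.2 CPM (54.9 to 113) and 39.3 CPM (33.1 to 46.2), with intervals apart, and their part in the result was not tested.

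**Figure D4:**
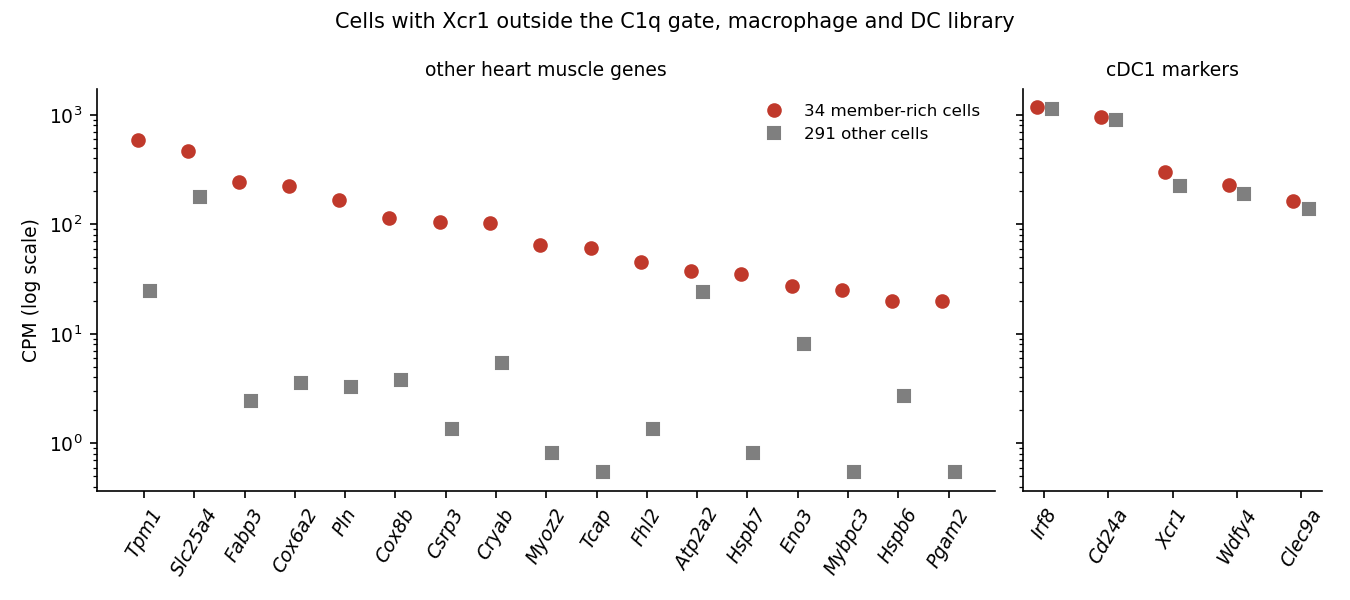
Levels (CPM, log scale) of heart muscle genes outside the 10 members (left) and of cDC1 markers (right) in the Xcr1 class of the macrophage and DC library, in 34 member-rich cells (red circles) and 291 other cells (grey squares). Heart muscle genes with at least 10 UMIs are shown; red lies far above grey for most of them, and the markers lie closer together.

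In steady-state macrophages the 60 member-rich cells of the C1q gate had 819 CPM (767 to 872) of the other heart muscle list, against 353 CPM (345 to 361) in the other gate cells. Most of those 353 CPM came from Slc25a4 (170), Tpm1 (49.5) and Atp2a2 (35.5), and Slc25a4 had a UMI in 80.0% of steady-state macrophages. The sum is thus no measure of cardiomyocyte RNA alone. Fabp3 had 48.3 against 7.66 CPM and Atp2a2 45.7 against 35.5 CPM. There the endothelial and mural lists were higher in sum too. The 6 mural genes summed to 24.2 CPM (16.0 to 34.9) in member-rich cells and 6.31 CPM (5.31 to 7.45) in the others. The endothelial list summed to 123 CPM in member-rich cells and 16.0 CPM in the others. Its gene ratios ranged from 3.42 (2.01 to 5.53) for Egfl7 to 22.2 (12.6 to 39.5) for Cldn5. The genes are not counted, because the share of all genes higher in these 60 cells was not computed. In the whole steady-state library the top 1%, or 18 cells, held 58.1% of the endothelial UMIs. The intervals treat each UMI as independent and do not allow for this. How far the ratios rest on few cells was not tested. The median depth of the member-rich cells was 18757 against 10763 UMIs and their median mitochondrial share 3.55% against 3.02%. The part of endothelial and mural RNA and of depth in this was not tested. At day 11 the 23 member-rich cells had 1330 CPM (1201 to 1469) of the other heart muscle list, against 295 CPM in the other gate cells, and 0 of 7 endothelial and 0 of 7 fibroblast genes were higher by that measure. Nppa, the atrial natriuretic peptide, had 15 UMIs or 51.3 CPM in the member-rich cells against 1.82 CPM in the other gate cells. Ankrd1, a stress-induced muscle protein, had 54.7 against 5.39 CPM. Cox7a1 made up less of the member UMIs in member-rich cells than in cells with 1 to 9 of them. Its part was 3.63% (2.05 to 5.92) against 14.6% (13.3 to 16.0) at day 11, 5.96% (4.82 to 7.28) against 15.3% (12.9 to 17.9) in the macrophage and DC library, and 8.13% (6.46 to 10.1) against 11.0% (9.90 to 12.2) in steady-state macrophages. The member-rich cells were defined by these same UMIs, so this is a description.

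Member UMIs were set against the depth of the cell, with the cells of a class in 4 bins of equal size by their UMIs. In C1q gate cells of the day 11 library, the deepest bin had 1.13 member UMIs per cell and the shallowest 0.406, a ratio of 2.79 where median depth differed 3.35-fold. In steady-state macrophages the values were 3.99 and 1.23, a ratio of 3.25 for 3.93-fold more depth. In C1q gate cells of the macrophage and DC library they were 0.824 and 0.610, a ratio of 1.35 for 3.36-fold more depth. In the Cd209a class they were 0.299 and 0.0935, a ratio of 3.20 for 2.57-fold more depth, on 79 UMIs in all. The deepest bin thus had more member UMIs per cell than the shallowest in each of these. In the C1q gate of the macrophage and DC library the intervals of both bins overlapped, and the level per 10000 UMIs was 0.7995 in the deepest and 2.19 in the shallowest bin. The Xcr1 class had 6.60 and 3.44 member UMIs per cell, and its cells of at least 10 were 9, 8, 6 and 11 from the deepest to the shallowest bin.

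**Figure D5:**
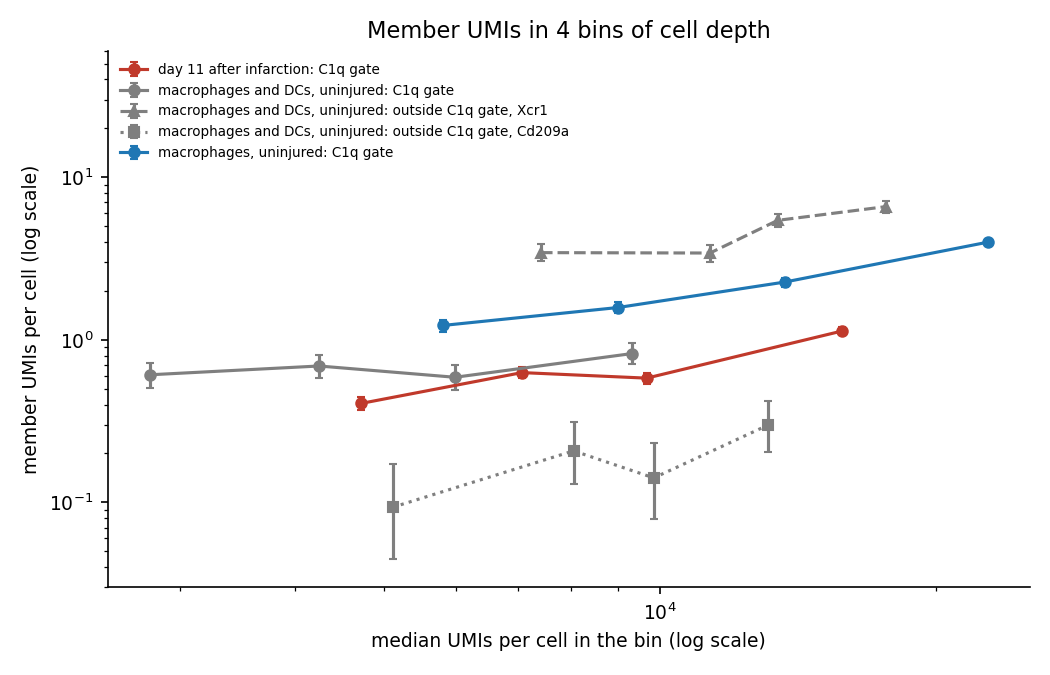
Member UMIs per cell (log scale) against the median UMIs of the cells (log scale) in 4 bins of cells by depth, for the C1q gate of the 3 libraries and for the Xcr1 and Cd209a classes of the macrophage and DC library. Bars are exact 95% counting intervals; the Xcr1 class has 3.42 to 6.60, the steady-state C1q gate 1.23 to 3.99 and the Cd209a class, lowest of those drawn, 0.0935 to 0.299.

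Part of the other heart muscle genes were low at day 11 too. Of 23 list genes that reached 1 CPM on either side, 8 were at least 2-fold lower at day 11 than in steady-state macrophages and 0 were higher, with a median ratio of 0.550. Of the 8, Ttn, Ckmt2, Smpx and Eef1a2 reached 1 CPM on the steady-state side only, so the minimum itself favoured this count. Over all 11653 genes at that level, 6.07% were lower and 3.33% higher, with a median ratio of 0.923. Against the macrophage and DC library 4 of 21 were lower and 1 higher, with a median of 0.687, where 6.3% and 18.4% of 11542 genes were and the median was 1.30. The higher one was Myom1, which links thick filaments at the M-band, with 5.81 CPM at day 11 and 1.88 CPM in the macrophage and DC library, a ratio of 3.09 (2.07 to 4.78). Des, the muscle intermediate filament desmin, had a ratio of 1.89 (1.11 to 3.44). Ttn, the giant spring titin, had 0.999 CPM at day 11, 0.209 CPM in the macrophage and DC library and 3.97 CPM in steady-state macrophages. Pln had 3.84, 8.37 and 9.73 CPM, and Cox8b, a muscle subunit of cytochrome c oxidase, 2.11, 7.04 and 6.401 CPM. Ttn shared with Myh6 a low level in the macrophage and DC library, while Pln and Cox8b shared the pattern of the sum. Genes of 2 further lists, fetal and stress genes and atrial genes of heart muscle, went in both directions. Ankrd1 had 5.53, 1.60 and 1.88 CPM, so that its day 11 level was 2.94 times (2.13 to 4.15) that of steady-state macrophages and 3.45 times (2.25 to 5.54) that of the macrophage and DC library. Nppa, of the atrial list, had 96 UMIs in the day 11 library, 1 in the macrophage and DC library and 4 in steady-state macrophages, or 2.13, 0.0697 and 0.171 CPM, a ratio to the last of 12.5 (4.72 to 46.7). Acta1, skeletal alpha actin, had 2.80, 1.26 and 3.24 CPM, with a ratio to steady-state macrophages of 0.862 (0.644 to 1.16). On the fetal and stress list that ratio was 0.591 (0.320 to 1.10) for Xirp2 and 0.624 (0.159 to 2.59) for Nppb. Myh7 had 11 UMIs at day 11 against 1, and Tnni1 had none. On the atrial list it was 0.293 (0.114 to 0.703) for Myl4. Myl7 had 0 UMIs against 1 and Dkk3 11 against 0, and Sln had none in either. Of the day 11 UMIs of Nppa, 15 of 96 lay in the 23 member-rich cells.

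Non-muscle relatives of the members stayed within 2-fold, as most genes at their level did. Of 12 such genes, all above 50 CPM, 0 were at least 2-fold different between the day 11 and either other library. Over all 2727 genes of at least 50 CPM on either side, 2.82% were lower and 1.72% higher at day 11 than in steady-state macrophages. Against the macrophage and DC library 4.7% and 12.7% of 2618 genes were. Cox7a2, the form of the subunit used in most tissues, had 368, 371 and 336 CPM, and Myl6, the non-muscle essential light chain, had 1137, 1361 and 1214 CPM. Across cells, the 10 genes most like the summed members were chosen by the smallest of 3 Pearson correlations, 1 per library over its cells, among 8679 genes. They were Fabp3, Pln, Tpm1, Myoz2, Csrp3, Cox8b, mt-Cytb, mt-Atp6, mt-Co3 and Cox6a2. The r of Fabp3 was 0.238 in the day 11 library, 0.491 in the macrophage and DC library and 0.285 in steady-state macrophages. That of Cox6a2, the tenth, was 0.124, 0.514 and 0.233. These are weak correlations in sparse counts that share each cell's depth and library, and are given as a description only. Of the 10, 7 are on the heart muscle list and 3 are transcripts of the mitochondrial genome, which is dense in heart muscle and present in every cell.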

How the data were processed

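The deposited values are UMI counts per gene and cell, made with Cell Ranger and STAR on mm10 per the submitters' processing notes; no source used here gives their versions or the strand setting. Cells with at least 500 genes and at most 10% mitochondrial UMIs were kept. Total UMIs of kept cells were 45058756 (day 11), 14342571 (macrophage and DC) and 23434525 (steady state). Doublets were kept in, since their removal could remove what is measured, and an alternative removed them. The members and the gene lists were chosen with earlier results of these data known. Named genes are the 10 members, genes of the lists, and the 10 genes most like the summed members. Levels were taken over all UMIs without reporter genes. Intervals are exact Poisson or binomial (Clopper-Pearson), at 95%. Thinning to 3000 UMIs used hypergeometric expectations, except for co-detection, which used 1 seeded draw. With 1 library per group there is no test and no p. The calculations were tested on simulated data. Python 3.11.15, numpy 2.4.6, scipy 1.17.1, pandas 2.3.3 and scanpy 1.11.5 were used.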

Additional observations from a re-analysis of the deposited data

Results flagged for a closer look

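The ratio of the summed level of the 10 transcripts between cells with and without a Timd4 UMI lay on both sides of 1. It was 1.61 at day 11 and, in the library that also held DCs, 2.91, against 0.867 in steady-state macrophages. The difference between libraries was not tested, since each group was 1 library. The ratio inside over outside the C1q gate did so too. It was 2.21 at day 11, 0.602 with the DCs in the sort and 0.593 in steady-state macrophages, where 11 cells lay outside. That difference was not tested either.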

How the results depend on the processing

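Over 31 results, 233 alternatives were computed. Of these, 164 stayed within the counting interval or within 1.5 times the count, 63 moved and 6 changed direction. No paired analysis was possible because each group has 1 library and no replicate. Values below are in the order day 11, macrophage and DC, steady state. Summed levels were 54.5, 124 and 132 CPM without Myl2, 56.9, 88.1 and 154.6 CPM without the 1% of cells with most member UMIs, and 177 CPM in steady-state macrophages without mitochondrial UMIs. The top 1% of the cells left then held 9.95%, 23.7% and 6.34% of the member UMIs. Without those top cells the day 11 level was 0.368 times the steady-state and 0.646 times the macrophage and DC level.

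Chosen after seeing the data were the C1q gate alone and leaving out cells of at least 10 member UMIs. The gate alone gave 116 CPM in the macrophage and DC library and 0.613 for day 11 over it. Leaving out those cells gave 60.6, 60.01 and 137.6 CPM, top 1% shares of 11.6%, 14.3% and 5.002%, and day 11 ratios of 0.440 to steady state and 1.01 to the macrophage and DC library.

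The Timd4 ratio was 1.79, 3.47 and 0.9504 at 2 UMIs, 1.44 and 1.38 in the first and second library without cells of at least 10 member UMIs, and 1.41 (top 1% out) and 0.932 (gate alone) in the macrophage and DC library. The C1q ratio there was 1.59 without the top 1%, 2.61 without the cells of at least 10 and 0.697 at a gate of 50, and it was 0.190 in steady-state macrophages at a gate of 10. The Xcr1 ratio there was 1.81, 5.15 (2 UMIs), 0.778 (gate alone) and 0.989, and 0.744 at day 11 at 2 UMIs. The Cd209a ratio at 2 UMIs was 0.584, 0.178 and 0.546, and in the macrophage and DC library 0.400 without the top 1%, 0.774 in the gate alone and 0.468 without the cells of at least 10. The deepest over the shallowest of 4 bins of cells by depth gave 2.47 and 1.33 without the top 1% and 2.40 and 1.11 without the cells of at least 10, at day 11 and in the macrophage and DC library, and 1.35 in the gate of that library.

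Genes at least 2-fold apart were counted as lower at day 11 than in steady state and than in macrophage and DC, and as higher with Xcr1. The first 2 counts were repeated inside the gate. In that order they were 221, 308, 340, 218 and 156 at the main minimum of 10 CPM on either side. They were 2455, 1963, 1585, 2468 and 1396 with no minimum and 77, 123, 125, 75 and 69 at 50 CPM. Marking doublets removed 175, 25 and 25 cells, among them 3, 1 and 3 of the 24, 46 and 62 cells with at least 10 member UMIs. The cause of these changes was not tested beyond what each setting leaves out. Few UMIs limit Myh6 and the Xcr1 ratios outside the macrophage and DC library.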

Other observations

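Barcodes removed by the filter carried more of the 10 transcripts per UMI than the kept cells. Their summed level was 324 CPM in 24 barcodes at day 11, 437 CPM in 13 barcodes of the macrophage and DC library and 377 CPM in 39 barcodes of the steady-state macrophage library, on 38, 20 and 104 UMIs. Their median depth was 4684.5, 2834 and 5845 UMIs.

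A single cell of the macrophage and DC library held 74 member UMIs among 2244 UMIs, or 3.30%, the highest share of any kept cell there. Its mitochondrial share was 8.29%, and it had 2 Xcr1 and 3 Timd4 UMIs.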
